A study of Mus musculus with 9 samples.

Results

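The genes described here are 10 secreted proteins of the TGF-beta family and its extracellular regulators, with the hormone gene Amh at their head: Amh, the activin and inhibin subunit genes Inhba, Inhbb, Inhbc and Inha, the bone morphogenetic protein genes Bmp2, Bmp4 and Bmp7, and 2 genes of extracellular modulators, Kcp and Ltbp4. They were taken by gene symbol from the annotation of 2 Agilent mouse array platforms that together name 19263 genes. All 10 were on the platform used for 3 arrays, with 14 features, and 9 were on the platform used for 6 arrays, with 9 features; Kcp was not measured there. The genes were chosen by family with the ratios of these arrays in view: Amh and Kcp were selected on their ratios against empty vector, and Ltbp4 on its difference between both constructs. Those values, and any mean log2 ratio of at least 1 in size among these 10 genes, are therefore given as descriptions without a test.

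The arrays compared mouse Neuro2A neuroblastoma cells that transiently expressed CCAT, a protein derived from the C-terminus of the calcium channel CaV1.2, with control cells, to find genes under its regulation. The PA1 plasmid carried either full-length CCAT (FL), which is 503 amino acids long, or a truncated CCAT of 280 amino acids without the domain for transcriptional activation, written DTA in the design text and DTS in the titles. Cells positive for GFP were collected by sorting 24 hours after transfection with Lipofectamine. FL was set against untransfected, sorted cells on 3 arrays, DTA against untransfected, sorted cells on 3 arrays, and FL against sorted cells with the empty PA1 plasmid on 3 arrays of the other platform. All groups are of 1 cell line, and the labels do not say whether replicates came from separate cultures, so p-values measure only a spread between arrays that may be technical. The label fields give Cy3 for CCAT RNA and Cy5 for control RNA on every array. In the ratio of any gene to control cells, an effect of the dye and an effect of the constructs therefore cannot be told apart. Against untransfected cells, effects of transfection and of the PA1 plasmid cannot be told apart from those of the constructs either. Any such effect of the same size on FL and DTA arrays drops out of FL minus DTA. Whether the sizes were the same was not tested. The words rose and fell describe ratios only.

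All values are log2 ratios per array or their means, read as CCAT over control. That order is likely, not stated: the study is known for Gjb5 as a gene that CCAT raises, and Gjb5 had 3.18 with FL against untransfected cells and 3.84 with FL against empty vector, while the design text reports that PA1 without CCAT also increased certain genes, and Isg15 had 4.27 with FL against untransfected cells and 0.26 with FL against empty vector. Every direction turns together if the order is the reverse. Arrays of 1 group correlated across genes at r = 0.81 to 0.95, and the median SD of a gene over 3 arrays was 0.071 for FL and 0.041 for DTA against untransfected cells and 0.041 for FL against empty vector. The treatment text of DTA replicate 3 names the full-length construct against its title and source, and on replicate 1 of the empty vector comparison the control text and the label field give different dyes, so values without these arrays are given where they matter. A ratio holds no level, so whether a feature was near background, and whether the cells carried the markers of their line, could not be read from these files. In a bulk sample, a change in the share of cells that express a gene and a change of RNA per cell cannot be told apart.

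Ligands of the TGF-beta family are secreted dimers that bind pairs of serine/threonine kinase receptors on the cell surface. The receptors phosphorylate SMAD proteins, which enter the nucleus and regulate genes. Activins are dimers of beta subunits, inhibins pair a beta subunit with the alpha subunit encoded by Inha and oppose activins, and bone morphogenetic proteins and anti-Müllerian hormone signal through a separate set of SMADs. Modulators outside the cell, among them the LTBP and chordin-like proteins, store ligands in the matrix or change their access to receptors. In the sympathetic nervous system, from whose precursors neuroblastoma arises, bone morphogenetic proteins are known for inducing noradrenergic neurons.

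Of the 10 genes, 4 had a mean ratio of at least 2-fold in some comparison (Amh, Inhbc, Ltbp4 and Kcp). Over all genes, a change of at least 2-fold that passed limma's test at an adjusted p of 0.05 was found in 1.62% with FL and 2.33% with DTA against untransfected cells, in 0.418% for FL minus DTA and in 0.262% with FL against empty vector. Nothing is read from that, since these ratios chose the genes. Start regions of 3 of these are in the RefSeq promoter table of GRCm38.p6, which held 7 of the 10 genes. They are shown because the study treats CCAT as a transcription factor, and each window runs from 250 bases before to 50 bases after an annotated start. Capitals mark the SMAD box CAGAC or its reverse complement GTCTG, the core letters SMAD proteins bind, and the GC box GGGCGG or its reverse complement CCGCCC. For Inhbc the window is chr10:127370499-127370798, for Kcp chr6:29507903-29508202 and for Ltbp4 chr7:27337563-27337862, all on the minus strand, and of the 3 Ltbp4 windows in the table the most upstream start is printed.
Inhbc: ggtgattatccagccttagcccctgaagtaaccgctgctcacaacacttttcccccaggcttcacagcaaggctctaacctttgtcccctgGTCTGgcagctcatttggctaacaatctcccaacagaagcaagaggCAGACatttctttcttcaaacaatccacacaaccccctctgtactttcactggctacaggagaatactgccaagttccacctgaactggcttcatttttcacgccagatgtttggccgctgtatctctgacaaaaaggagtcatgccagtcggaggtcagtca
Kcp: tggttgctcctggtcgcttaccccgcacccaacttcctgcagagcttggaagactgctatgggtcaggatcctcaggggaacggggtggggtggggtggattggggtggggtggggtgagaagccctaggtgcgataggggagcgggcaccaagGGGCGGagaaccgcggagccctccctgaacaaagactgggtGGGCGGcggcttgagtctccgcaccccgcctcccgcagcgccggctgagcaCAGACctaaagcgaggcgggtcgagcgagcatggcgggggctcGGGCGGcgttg
Ltbp4: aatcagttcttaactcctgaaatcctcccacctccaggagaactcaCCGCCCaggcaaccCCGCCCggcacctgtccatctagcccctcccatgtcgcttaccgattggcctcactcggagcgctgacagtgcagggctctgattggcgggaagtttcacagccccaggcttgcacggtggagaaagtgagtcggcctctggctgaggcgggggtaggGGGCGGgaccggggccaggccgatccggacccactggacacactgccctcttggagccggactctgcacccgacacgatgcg
The Inhbc window held 2 SMAD boxes and no GC box, with 49.7% G and C. The Kcp window held 1 SMAD box and 3 GC boxes, with 68.0% G and C, and the Ltbp4 window held no SMAD box and 3 GC boxes, with 64.3%. The other 2 Ltbp4 windows, which overlap each other, held 9 and 7 GC boxes, with 81.3% and 80.3% G and C, and no SMAD box. Over all 32851 windows of this length, 49.6% held a SMAD box on either strand and 35.7% a GC box, so these letters are common. A match is a description of the letters only.

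Amh encodes anti-Müllerian hormone, which makes the Müllerian ducts regress in male embryos and is made by Sertoli and granulosa cells. Its ratio was below 0 on all 9 arrays. With FL against untransfected cells the log2 ratios were -1.06, -1.06 and -1.29, a mean of -1.14 (SD 0.13, n = 3), or 2.20-fold lower. With DTA against untransfected cells they were -0.92, -0.9996 and -1.31 (mean -1.08, SD 0.20, n = 3), and without replicate 3 the mean was -0.96. The FL and DTA arrays overlapped. With FL against empty vector they were -1.40, -1.12 and -1.38 (mean -1.30, SD 0.15, n = 3), or 2.46-fold lower, and -1.25 without replicate 1. In mean ratio, Amh stood 45th lowest with FL and 62nd lowest with DTA among 16504 genes, and 10th lowest among 19087 genes against empty vector.

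The mean Amh ratio thus lay between -1.30 and -1.08 in the 3 groups. Since the label fields give Cy3 for CCAT RNA on all 9 arrays, an effect of the dye on the Amh features and an effect of the constructs cannot be told apart. Amhr2, the receptor that binds this hormone, went the other way, at 1.13 (SE 0.02) with FL and 0.69 (SE 0.02) with DTA against untransfected cells and 0.17 (SE 0.02) with FL against empty vector, with limma adjusted p of 3.02e-06, 6.57e-06 and 0.00422. The genes that neighbour Amh on chromosome 10 had ratios near or above 0. Sf3a2, a splicing factor subunit, was at 0.18 (SD 0.15) with FL, 0.37 (SD 0.03) with DTA and 0.32 (SD 0.05) with FL against empty vector, and Jsrp1, a muscle protein, was at -0.02, 0.08 and 0.01. Over all 9 arrays the genes whose ratios varied most like those of Amh, among 1145 that spanned at least 1, were Il20 (Pearson's r = 0.87), Tlr6 (0.82) and Anxa13 (0.79). None of these had its level of ratio: Il20 averaged 0.23 with FL and 0.57 with DTA against untransfected cells and -0.03 with FL against empty vector. These genes are the top of 1145 candidates, and the 9 arrays fall into 3 groups. Values of r this high can arise by chance in such a search, so nothing is read from them.

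**Figure D1:**
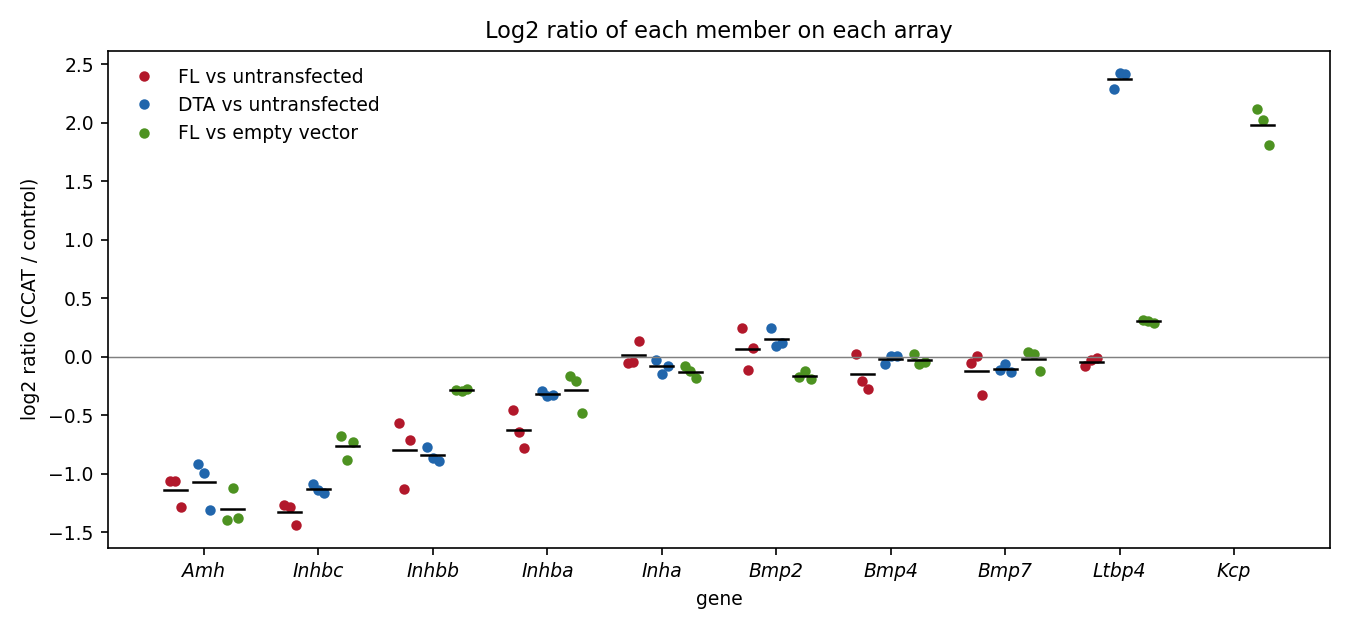
Log2 ratio of CCAT over control RNA (vertical axis) for each of the 10 genes (horizontal axis), with 1 point per array and a black line at the mean of 3 arrays; colours give the group. Amh and Inhbc lie well below 0 in all groups, Ltbp4 stands at 2.37 in the DTA group, and Kcp, measured on the 3 arrays against empty vector, at 1.98.

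Inhbc, Inhba and Inhbb encode the beta subunits from which activins and inhibins are built, and their ratios were below 0 on all 9 arrays except for 1 of the 2 Inhbb features of the empty vector platform, which was above 0 on its 3 arrays. Inhbc, whose subunit is best known from liver, had log2 ratios of -1.27, -1.29 and -1.44 with FL against untransfected cells (mean -1.33, SD 0.10, n = 3) and of -1.09, -1.14 and -1.17 with DTA against untransfected cells (mean -1.13, SD 0.04, n = 3). Inhbc was thus 2.52-fold lower with FL and 2.20-fold lower with DTA, and its FL arrays lay below all its DTA arrays. It was the 23rd lowest of 16504 genes with FL and the 50th lowest with DTA. Against empty vector it has 2 features, and they differed. One gave -0.95, -1.34 and -1.03 (mean -1.10, SD 0.20, n = 3) and the other -0.40, -0.43 and -0.43 (mean -0.42, SD 0.02, n = 3). The mean of both, -0.76 (SD 0.11), passed the test (limma adjusted p 0.00243). The features differed by 0.68, more than in all but 4.38% of the 5279 genes with 2 features, whose median difference was 0.20. Inhbe, which lies beside Inhbc on chromosome 10 and encodes another beta subunit, fell by 0.37 with FL, 0.27 with DTA and 0.29 with FL against empty vector (limma adjusted p 7.39e-05, 2.17e-04 and 0.0118). R3hdm2, on the other side of Inhbc, was at 0.34, 0.39 and 0.14.

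Inhbb encodes the beta B subunit. Its log2 ratios were -0.56, -1.13 and -0.71 with FL against untransfected cells (mean -0.80, SD 0.29, n = 3) and -0.78, -0.86 and -0.89 with DTA against untransfected cells (mean -0.84, SD 0.06, n = 3). Inhbb fell in both (limma adjusted p 8.42e-04 with FL and 6.17e-04 with DTA), and the arrays of both groups overlapped. Against empty vector 1 Inhbb feature gave -0.79, -0.71 and -0.68 (mean -0.72, SD 0.06, n = 3, adjusted p 0.00253 tested as a single feature). The other Inhbb feature gave 0.22, 0.12 and 0.12 (mean 0.15, SD 0.06, n = 3, adjusted p 0.0196). The features of this gene thus pass the test in opposite directions, and their mean of -0.29 (SD 0.01) describes neither. Their difference of 0.88 was exceeded in 1.67% of genes with 2 features. The probe sequences were not used here, so which of them corresponds to the feature of the 6 arrays was not tested.

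**Figure D2:**
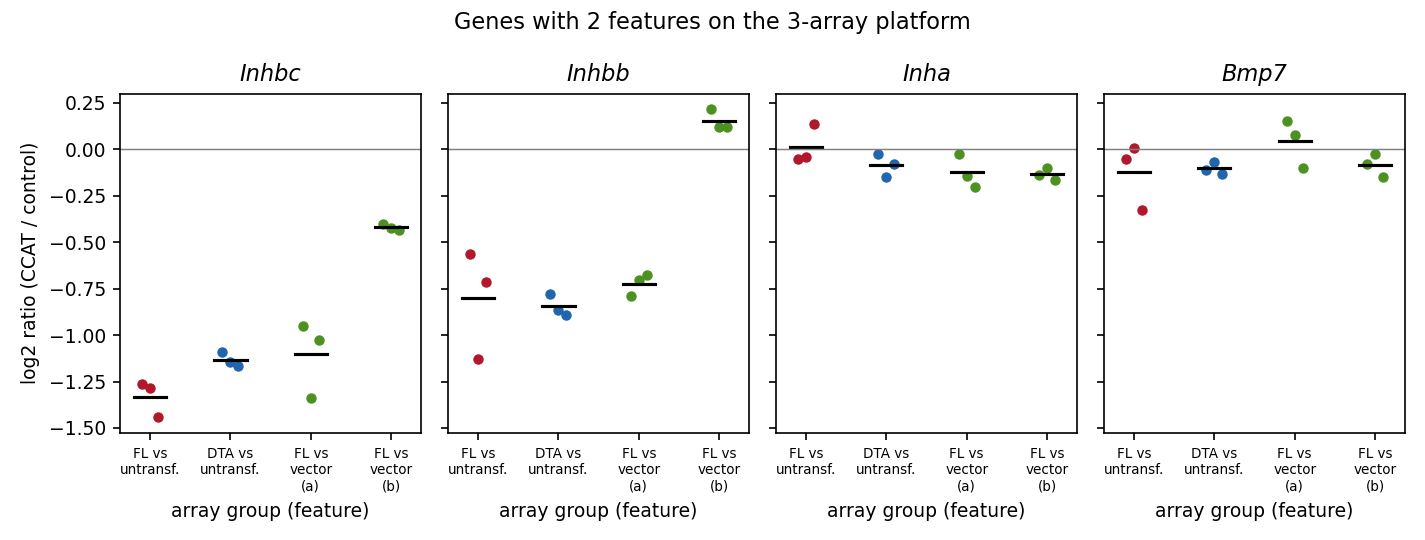
Log2 ratio per array (points) and mean of 3 arrays (black lines) for the 4 genes that have 2 features, (a) and (b), on the platform of the 3 arrays against empty vector, beside their single feature on the 6 arrays. The 2 features of Inhbb lie on opposite sides of 0 and those of Inhbc at -1.10 and -0.42, while those of Inha and Bmp7 overlap.

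Inhba encodes the beta A subunit of activin A. It had log2 ratios of -0.46, -0.64 and -0.78 with FL against untransfected cells (mean -0.63, SD 0.16, n = 3) and of -0.29, -0.34 and -0.33 with DTA against untransfected cells (mean -0.32, SD 0.02, n = 3). It fell with both (limma adjusted p 2.24e-04 and 0.00339), and all FL arrays lay below all DTA arrays. With FL against empty vector the ratios were -0.16, -0.21 and -0.48 (mean -0.29, SD 0.17, n = 3, adjusted p 0.0421). That last call was lost without replicate 1 (-0.35, adjusted p 0.0742) and without replicate 2 (-0.32, adjusted p 0.101), and without replicate 3 the value was -0.19 (adjusted p 0.0238). Inha, the alpha subunit that makes an inhibin of a beta subunit, stayed close to 0. It had -0.05, -0.04 and 0.13 with FL against untransfected cells (mean 0.01, SD 0.11, n = 3) and -0.03, -0.15 and -0.08 with DTA against untransfected cells (mean -0.08, SD 0.06, n = 3), and neither passed the test (limma adjusted p 0.824 and 0.135). The 95% intervals of the Inha ratio were -0.10 to 0.12 for FL and -0.20 to 0.03 for DTA, and the mean ratios of the beta subunits lie outside them. They describe 1 feature whose level is not known, so they do not show that Inha RNA was unchanged. Against empty vector the features of Inha gave -0.12 and -0.14, and their mean of -0.13 (SD 0.05, n = 3) passed the test (adjusted p 0.0220), a call lost without replicate 2 (adjusted p 0.0901) or replicate 3 (adjusted p 0.0549).

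The bone morphogenetic protein genes described here, Bmp2, Bmp4 and Bmp7, varied little. Bmp2, which with Bmp4 and Bmp7 is known to induce sympathetic neurons, had 0.25, -0.12 and 0.07 with FL against untransfected cells (mean 0.07, SD 0.18, n = 3, limma adjusted p 0.415) and 0.24, 0.09 and 0.12 with DTA against untransfected cells (mean 0.15, SD 0.08, n = 3, adjusted p 0.0970). Against empty vector Bmp2 had -0.18, -0.13 and -0.19 and fell (mean -0.16, SD 0.03, n = 3, adjusted p 0.00637). The fall of Bmp2 amounts to 1.12-fold. Bmp4 had 0.02, -0.21 and -0.28 with FL against untransfected cells (mean -0.15, SD 0.16, n = 3), which did not pass (adjusted p 0.0547). Single arrays moved the Bmp4 value with FL: it was -0.24 without replicate 1 (adjusted p 0.00279), -0.13 without replicate 2 (adjusted p 0.197) and -0.092 without replicate 3 (adjusted p 0.224). Bmp4 averaged -0.02 (SD 0.04, n = 3) with DTA against untransfected cells and -0.03 (SD 0.04, n = 3) with FL against empty vector. Bmp7 averaged -0.12 (SD 0.18, n = 3) with FL and -0.10 (SD 0.03, n = 3) with DTA against untransfected cells, and its features averaged 0.04 and -0.09 with FL against empty vector. Without FL replicate 3 the Bmp7 mean against untransfected cells was -0.023. Bmp7 did not pass in any of these comparisons (adjusted p 0.130, 0.186 and 0.665), although with the DTA arrays fitted alone it did (adjusted p 0.0137), as did Bmp2 (adjusted p 0.0271).

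Ltbp4 encodes a latent TGF-beta binding protein that anchors ligand complexes and elastic fibres in the matrix. It had 2.28, 2.42 and 2.41 with DTA against untransfected cells (mean 2.37, SD 0.08, n = 3), the 19th highest of 16504 genes, and -0.08, -0.03 and -0.01 with FL against untransfected cells (mean -0.04, SD 0.03, n = 3). The groups lie far apart, and without DTA replicate 3, whose text names the full-length construct, the DTA mean was 2.35. FL minus DTA was -2.42, the 5th lowest difference of all genes, or 5.33-fold. With FL against empty vector Ltbp4 had 0.31, 0.31 and 0.28 (mean 0.30, SD 0.02, n = 3) and rose (limma adjusted p 0.00208). Numbl, next to it on chromosome 7, had 0.96 with FL and 0.98 with DTA against untransfected cells and -0.36 with FL against empty vector, and Shkbp1 on the other side had -0.02, 0.09 and 0.02. Neither neighbour showed the gap between FL and DTA. The genes whose ratios varied most like those of Ltbp4 over the 9 arrays were Mycn (r = 0.996), Nabp2 (0.995) and Tango6 (0.993). Mycn, the oncogene amplified in many neuroblastomas, was at -0.17 with FL and 1.31 with DTA against untransfected cells and at 0.004 with FL against empty vector. The 9 points behind each r fall into separate array groups, so each r mostly describes the distance of the DTA arrays from the rest. Each platform has 1 feature for Ltbp4, so its value was not checked against another feature of the same array.

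Kcp encodes kielin/chordin-like protein, an extracellular protein that in the mouse strengthens signalling by bone morphogenetic proteins and restrains that by TGF-beta. It was measured only with FL against empty vector, where it had 2.12, 2.03 and 1.81 (mean 1.98, SD 0.16, n = 3), or 3.95-fold higher. It was the 3rd highest of 19087 genes, and 1.92 without replicate 1. Irf5, next to Kcp on chromosome 6, had 0.09 (SD 0.04, n = 3) there. Kcp rests on 1 feature of 1 platform.

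FL and DTA were also compared directly, to ask what depends on the part of CCAT that the truncated construct lacks. The level of either construct was not measured on these arrays, and untransfected cells were the control of both groups. Apart from Ltbp4, which was chosen on this difference, limma called 2 of the 8 measured genes, both lower with FL, where 34.2% of all 16504 genes were called, 18.2% as higher and 16.1% as lower. These were Inhba, with a difference of -0.30 (95% interval -0.51 to -0.10, adjusted p 0.0359), and Inhbc, with -0.20 (-0.33 to -0.06, adjusted p 0.0410). Both calls were lost without any 1 DTA array or without FL replicate 2, when adjusted p was 0.0916 to 0.107 for Inhba and 0.0652 to 0.123 for Inhbc. With quantile normalization the Inhbc difference turned to 0.52 (adjusted p 0.0485), while that of Inhba was -0.28 (adjusted p 0.0244). Amh differed by -0.06 (-0.36 to 0.23, adjusted p 0.721), and with quantile normalization by 0.52 (adjusted p 0.224). The intervals of Inhbb (-0.32 to 0.40), Inha (-0.06 to 0.25), Bmp2 (-0.32 to 0.16), Bmp4 (-0.33 to 0.07) and Bmp7 (-0.24 to 0.20) all included 0, which does not show that both constructs act alike on them.

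**Figure D3:**
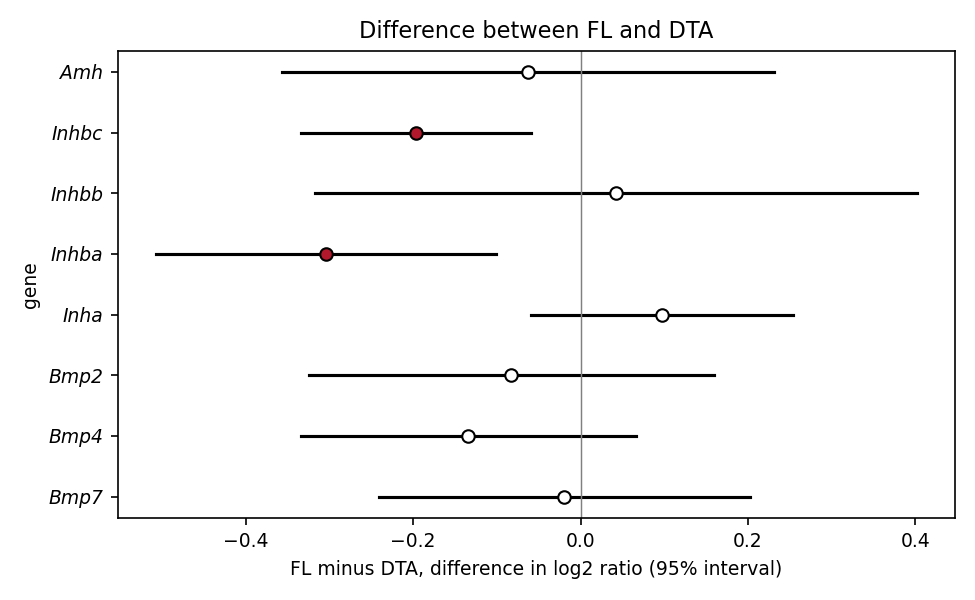
Difference in log2 ratio, FL minus DTA (horizontal axis), for 8 of the genes (rows), with its 95% interval from limma; filled points passed an adjusted p of 0.05. Inhba and Inhbc lie below 0 and the other intervals include 0; Ltbp4, at -2.42, is left out.

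Counts of calls say little here, because most genes passed. Limma called 4 of 9 of these genes with FL against untransfected cells, all lower, where 69.8% of all genes passed, 34.7% as higher and 35.1% as lower. With DTA against untransfected cells it called 4 as lower and 1 as higher, where 71.8% of all genes passed, 35.7% as higher and 36.1% as lower. Against empty vector it called 6 of 10 as lower and 2 as higher, where 63.4% passed, 30.6% as higher and 32.8% as lower. Inhbb is counted there as lower by the mean of its features, which passed in opposite directions. The median log2 ratio over the measured genes was -0.15 with FL and -0.10 with DTA against untransfected cells and -0.15 with FL against empty vector, beside -0.002, -0.006 and -0.005 over all genes. The counts include the values on which genes were chosen, so nothing is read from them.

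Other ligands of the family, and the lists after them, were counted in the same way. Limma called 69.8% of all genes with FL and 71.8% with DTA against untransfected cells, and 63.4% with FL against empty vector. Of these ligands it called 63.6%, 63.6% and 54.2%. No list was tested against all genes, so nothing is read from these counts. With FL, 5 of 22 rose and 9 fell against untransfected cells, and with DTA 6 rose and 8 fell; against empty vector 2 of 24 rose and 11 fell with FL, with medians of -0.09, -0.05 and -0.13. Gdf9, the oocyte-secreted growth factor, was highest with FL at 1.13 (SE 0.05), with 1.23 (SE 0.05) with DTA and 0.31 (SE 0.02) with FL against empty vector (limma adjusted p 1.71e-05, 9.85e-06 and 0.00212). Tgfb1, the founding ligand, fell by 0.57 with FL against untransfected cells (adjusted p 5.41e-05) and was at -0.03 with DTA (adjusted p 0.435), and the difference between them of -0.54 passed (adjusted p 0.00139). Against empty vector Tgfb1 was at -0.10 and did not pass (adjusted p 0.160). Bmp3 fell by 0.54 and Gdf11 fell by 0.55 against empty vector (adjusted p 0.00208 and 0.00294), but Gdf11 rose by 0.43 with FL and 0.46 with DTA against untransfected cells. Bmp3 was at 0.14 with FL against untransfected cells (adjusted p 0.135) and rose by 0.21 with DTA (adjusted p 0.0420).

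Of the receptors and co-receptors, 2 of 18 rose and 5 fell with FL against untransfected cells, 4 rose and 8 fell with DTA, and 7 of 19 rose and 7 fell with FL against empty vector. These calls are 38.9%, 66.7% and 73.7% of the list, beside 69.8%, 71.8% and 63.4% of all genes. Apart from Amhr2, Acvrl1, a receptor of endothelial cells, fell by 0.85 with FL and 0.71 with DTA (limma adjusted p 1.12e-04 and 2.01e-04) and was at -0.05 against empty vector (adjusted p 0.196). Rgmb, a co-receptor of bone morphogenetic proteins, was at 0.02 with FL and fell by 0.71 with DTA, a difference of 0.73 (adjusted p 0.00301). Bmpr1b, a type I receptor, fell by 0.53 and Eng, a co-receptor, fell by 0.42 with FL against empty vector (adjusted p 0.00233 and 0.00219). With FL against untransfected cells they were at -0.09 and -0.16 and did not pass (adjusted p 0.577 and 0.107). With DTA they were at -0.37 and -0.30 and passed (adjusted p 0.0438 and 0.0114).

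**Figure D4:**
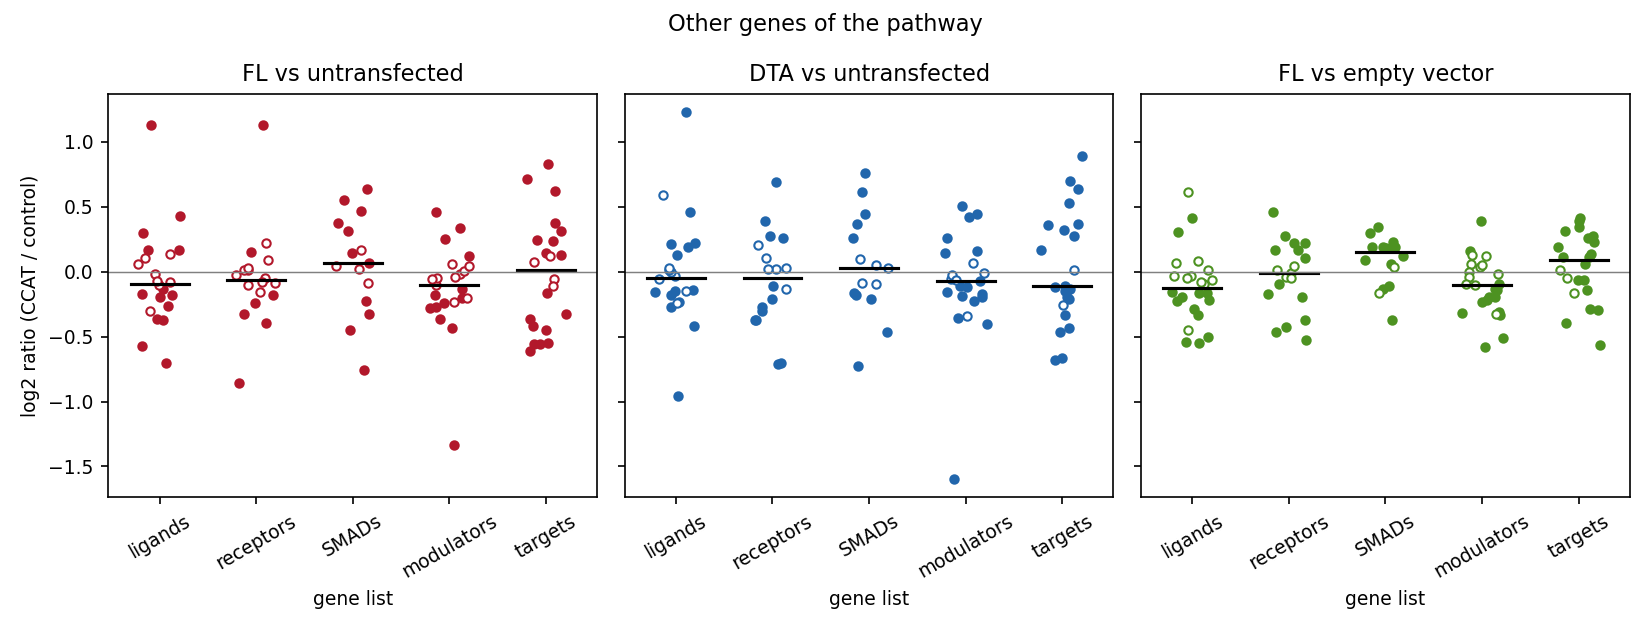
Mean log2 ratio of CCAT over control RNA (vertical axis) of the genes of 5 lists (horizontal axis), with 1 point per gene, filled where limma called it at an adjusted p of 0.05, and a black line at the list's median. Panels are the 3 array groups. The medians lie between -0.13 and 0.15 while single genes reach 1.23 and -1.60.

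Among SMADs and their regulators, 7 of 15 rose and 4 fell with FL against untransfected cells, 5 rose and 5 fell with DTA, and 11 of 16 rose and 3 fell with FL against empty vector. The called shares were 73.3%, 66.7% and 87.5%, beside 69.8%, 71.8% and 63.4% of all genes. Smad1, which carries the signal of bone morphogenetic proteins, rose by 0.64 with FL, 0.76 with DTA and 0.18 with FL against empty vector (limma adjusted p 2.15e-05, 9.71e-06 and 0.00517). Smad9, a related SMAD, fell by 0.76, 0.72 and 0.37 (adjusted p 7.37e-05, 7.38e-05 and 0.00298). Smad4, the partner shared by all branches, rose by 0.47 with FL and 0.62 with DTA and by 0.06 against empty vector (adjusted p 6.94e-05, 2.27e-05 and 0.0305).

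Of the other extracellular modulators, 4 of 23 rose and 9 fell with FL against untransfected cells, 6 rose and 11 fell with DTA, and 2 of 25 rose and 12 fell with FL against empty vector. Calls thus made up 56.5%, 73.9% and 56% of the list, beside 69.8%, 71.8% and 63.4% of all genes. Ltbp1, a relative of Ltbp4, fell by 1.34 with FL and 1.60 with DTA and by 0.58 with FL against empty vector (limma adjusted p 1.48e-04, 6.49e-05 and 0.00548). Ltbp1 thus went opposite to Ltbp4 with DTA. Chrd, the antagonist chordin, fell by 0.43, 0.40 and 0.51 (adjusted p 1.27e-04, 1.47e-04 and 0.00338), and Fstl1, a follistatin-like protein, rose by 0.33, 0.42 and 0.39 (adjusted p 6.75e-05, 2.54e-05 and 0.00208). Fst, the activin antagonist follistatin, was at -0.10 with FL (adjusted p 0.20) and rose by 0.26 with DTA (adjusted p 0.0102), a difference of -0.36 (adjusted p 0.0257).

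Of 22 genes known as direct SMAD targets, 9 rose and 9 fell with FL against untransfected cells, 9 rose and 11 fell with DTA, and 12 rose and 7 fell with FL against empty vector, at medians of 0.01, -0.11 and 0.09. Limma thus called 81.8%, 90.9% and 86.4% of the list, beside 69.8%, 71.8% and 63.4% of all genes. Whether the list differs from all genes was not tested. Id1, a target of bone morphogenetic protein signalling, fell by 0.55 with FL and 0.66 with DTA (limma adjusted p 1.53e-05 and 6.68e-06) and was 0.11 higher with FL against empty vector (adjusted p 0.00658). Klf10, an early TGF-beta target, rose by 0.72 with FL and 0.70 with DTA (adjusted p 9.91e-06 and 7.18e-06) and fell by 0.06 against empty vector (adjusted p 0.0262). Gadd45b, a stress gene also induced by TGF-beta, rose by 0.83, 0.53 and 0.31 (adjusted p 6.31e-06, 1.26e-05 and 0.00208).

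Markers of the gonadal somatic cells that usually make Amh and inhibin were read as ratios beside these results. Of 9 measured, 2 rose and 1 fell with FL against untransfected cells, 6 rose and 2 fell with DTA, and 5 rose and 3 fell with FL against empty vector, with medians of -0.002, 0.16 and 0.12. The called shares were 33.3%, 88.9% and 88.9% of these markers, beside 69.8%, 71.8% and 63.4% of all genes. Amhr2 is one of these markers and belongs to the receptors as well. The part of these markers in the Amh ratio was not tested.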

How the data were processed

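The authors deposited 1 log10 ratio of both channels per feature and array, which the design text credits to the Rosetta Luminator software. How background and dyes were corrected, and which channel was divided by which, is not given in the sources used here. That the log has base 10 was inferred: values on FL arrays against untransfected cells stop at -2, and medians of all arrays were -0.0046 to -0.0011. No signal, background or saturation value was used, so depth and detection are unknown and the number of arrays limits the precision.

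Values were rescaled to log2. Gene symbols came from the annotation of each platform, and gene IDs were matched to the RefSeq table of GRCm38.p6 for 18175 of 18218 named features of the 6 arrays and 31906 of 32042 of the 3 arrays. Features with several symbols (16 and 47) or none (4159 and 11701) were left out. Features of a gene were averaged and the means tested with the limma package 3.58.1 (R 4.3.3), by lmFit and eBayes with Benjamini-Hochberg adjustment over all genes and a threshold of 0.05. The 6 arrays shared 1 fit with 4 residual degrees of freedom and the 3 arrays had a fit with 2. Members and lists were chosen with earlier results of these data known. From each list and comparison up to 4 called genes with the smallest p could be named. On simulated data, 84% of genes changed by 0.5 were recovered for FL among 16504 genes, 88% for DTA, 74% for their difference and 80% for FL against empty vector among 19087. False calls there numbered 13, 11, 9 and 15. The simulation drew independent normal noise and changed 100 genes per size, while most genes were called in the comparisons with control cells. These shares are therefore not the power of the tests on the real arrays. Figures used matplotlib 3.10.9.

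Same-numbered FL and DTA arrays deviated from their group means with r of -0.04, 0.09 and -0.003, so replicate numbers were not taken to pair them. Other settings tried were leaving out each array, centring of arrays, quantile normalization, the replicate number as a block, a fit of each group by itself, robust eBayes, a threshold of 2-fold, testing features singly or by their median, treating ratios of 0 as missing, and a filter on genes that stayed under 0.2 in absolute log2 ratio on every array.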

Additional observations from a re-analysis of the deposited data

Results flagged for a closer look

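FL and DTA differed by limma's test of the difference itself for Inhba, with FL minus DTA of -0.30 on the log2 scale, and for Inhbc, with -0.20. The calls of both were lost without FL replicate 2 or any 1 DTA array. With quantile normalization the Inhbc difference turned to 0.52 (limma adjusted p 0.0485), so its direction depends on the processing, while that of Inhba was -0.28. For Ltbp4 FL minus DTA was -2.42, which is given without a test because the gene was chosen on this value.

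Ltbp4 was also above 0 on all 3 arrays of FL against empty vector (mean 0.30) and below 0 on all 3 arrays of FL against untransfected cells (mean -0.04). The difference between these comparisons was not tested, since they were made on different platforms with other control cells.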

How the results depend on the processing

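Setting aside the 2-fold threshold, 489 values of these genes were recomputed over 18 other settings, and 454 kept their direction and their side of the threshold. These counts include values on which genes were chosen, for which a kept side is no sign of stability. They also include settings that cannot change a mean ratio, such as robust eBayes and the replicate block. For a ratio against untransfected cells, leaving out an array of the other construct cannot change it either. In those settings a kept direction was fixed in advance. Quantile normalization moved Amh with DTA to -1.54 and Inhbc with DTA to -1.67. Directions turned 12 times. With quantile normalization FL minus DTA became 0.52 for Amh and 0.52 for Inhbc. The other turns came from leaving out 1 array and were near 0. FL against untransfected cells then ranged from -0.049 to 0.045 for Inha and from -0.022 to 0.16 for Bmp2, and DTA against untransfected cells from -0.031 to 0.0047 for Bmp4. FL minus DTA ranged from -0.18 to 0.015 for Amh, -0.077 to 0.21 for Inhbb, -0.17 to 0.0090 for Bmp2 and -0.085 to 0.081 for Bmp7, and FL against empty vector from -0.051 to 0.030 for Bmp7. The cause was not tested. Genes called at least 2-fold numbered 268 with FL and 384 with DTA against untransfected cells, 69 for FL minus DTA and 50 with FL against empty vector, beside 11513, 11854, 5646 and 12107 without that threshold. With the filter on barely varying genes, 7629 genes were called against empty vector, where fewer genes were tested. Leaving out 1 array gave 10347 to 11349 genes with FL, 10113 to 12566 with DTA, 3415 to 5836 for FL minus DTA and 8400 to 9788 against empty vector, and for FL minus DTA 3731, 3595 and 3415 without DTA replicate 1, 2 and 3. With the replicate block, 11016 genes were called with FL, 11389 with DTA and 4016 for FL minus DTA, and of the genes described Bmp2 with DTA then passed (adjusted p 0.0302) while no other call changed. No paired analysis was possible for FL against empty vector because that platform holds 1 group.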
